A study of Mus musculus with 12 samples.

Results

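The Wnt ligands, their receptors and their secreted modulators were followed as 1 family of 49 genes among the 43432 genes of the deposited count table, in epithelial cells sorted from mouse gallbladder and small intestine. The members were chosen by gene name alone: protein-coding genes whose symbols begin with Wnt, Fzd, Sfrp, Dkk or Rspo and a digit, together with Lrp5, Lrp6, Lgr4, Lgr6, Znrf3, Wif1, Porcn and Wls. They comprise 19 Wnt ligands, 2 genes of ligand processing, 10 Frizzled receptors, 2 co-receptors, 4 R-spondins, 2 R-spondin receptors, 1 receptor ubiquitin ligase and 9 secreted inhibitors.

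Wnt proteins are secreted signals of short range that carry a lipid, attached in the endoplasmic reticulum by the acyltransferase PORCN, and are taken to the cell surface by the carrier WLS. In the canonical pathway a ligand joins a Frizzled receptor to LRP5 or LRP6 and so stabilises beta-catenin, while other ligands, WNT5A among them, act mainly without beta-catenin. R-spondins, through LGR receptors, withdraw the ubiquitin ligases ZNRF3 and RNF43 that remove Frizzleds from the surface, and SFRP, WIF1 and DKK proteins block the ligands or their co-receptors. In the small intestine this pathway is known for maintaining the stem cells of the crypt.

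Bulk RNA sequencing covered 4 groups of 3 libraries each, made with Flare25 mice, whose IL-25-producing cells carry a red fluorescent reporter. Live, single, EpCAM+ cells were sorted as IL-25+ or IL-25- from the gallbladder and as IL-25+ or IL-25- from the proximal small intestine. The labels list HDM AF647, given to the mice 1 day earlier, for the 6 gallbladder libraries and no treatment for the 6 small intestine libraries, while a protocol field describes all of them as homeostasis. Tissue and that treatment label cannot be told apart in any comparison between tissues. Neither age nor the number of mice is given. Since nothing states that the replicates are different animals, each p value reflects variation among libraries, which may be technical.

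Libraries held 23703449 to 64736650 counts, and 3 counts, the limit that a count of 0 allows, correspond to 0.0421 to 0.122 CPM (counts scaled to a common library size) in a single library, for counting error only. The summed level of 12 tuft cell markers was 25200 to 26900 CPM in IL-25+ and 40.6 to 199 CPM in IL-25- gallbladder libraries, and 35200 to 42500 CPM in IL-25+ and 96.1 to 273 CPM in IL-25- small intestine libraries. Mitochondrial genes took 7.13 to 8.83% of counts in IL-25+ and 11.18 to 25% in IL-25- gallbladder libraries, and 12.07 to 17.23% in IL-25+ and 26.64 to 34.87% in IL-25- small intestine libraries. Their part in the gate results was not tested. In 2 IL-25- libraries markers of the other tissue stood above the rest of the group. In IL-25- gallbladder library 1 the 10 enterocyte markers stood at a median of 5.02% of their IL-25- small intestine mean, against 0.0271 to 0.112% in the other 5 gallbladder libraries. Of 9 gallbladder epithelial markers, 6 were highest in library 3 among the IL-25- small intestine libraries, Muc1 with 5.1, 4.87 and 61.5 CPM and Sox17 with 0.148, 0.234 and 1.6 CPM in libraries 1 to 3, while 3 were not, such as Krt7 with 89.8, 151 and 54.4 CPM. The median of the 9 was 3.67, 3.97 and 6.11% of their IL-25- gallbladder mean. Results that rest on either library, called the 2 doubtful libraries here, are given with and without it.

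To show the ligands that the results turn on, the coding sequence around the serine to which PORCN attaches the lipid was located by translating each reading frame and searching for the conserved segment. The 24 bases are given 5' to 3' on the coding strand, from GENCODE M21 transcripts, with the codon of that serine in capitals.
Wnt5a: tgtcatggagtgTCTggctcctgt
Wnt7b: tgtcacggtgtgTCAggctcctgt
Wnt7a: tgccatggtgtgTCAggctcctgt
Wnt4: tgtcacggggtgTCGggctcctgc
These segments lie at chr14:28522515-28522538 (plus strand, exon 5 of 5) for Wnt5a, chr15:85537812-85537835 (minus strand, exon 4 of 4) for Wnt7b, chr6:91366272-91366295 (minus strand, exon 4 of 4) for Wnt7a and chr4:137296345-137296368 (plus strand, exon 5 of 5) for Wnt4, all in GRCm38. Wnt7b and Wnt7a shared 22 of the 24 bases and the codon itself. Wnt5a shared 21 bases with each of them and 20 with Wnt4, and Wnt4 shared 21 with Wnt7b and 19 with Wnt7a. The codon was spelled TCT in Wnt5a, TCA in Wnt7b and Wnt7a and TCG in Wnt4, so the letters of this segment tell the 4 transcripts apart except at the codon shared by the Wnt7 pair.

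Of the 49 members, 24 had enough counts to be tested. These were 6 of the 19 ligands, both processing genes, 8 of the 10 Frizzleds, both co-receptors, both R-spondin receptors, Znrf3 and 3 of the 9 secreted inhibitors. Wnt1, Wnt3a, Rspo2, Dkk4 and Sfrp4 had 0 counts in all 12 libraries, and the other 20 untested members had few, at most the 133 counts of Wnt3 over all libraries. No R-spondin reached the filter.

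**Figure D1:**
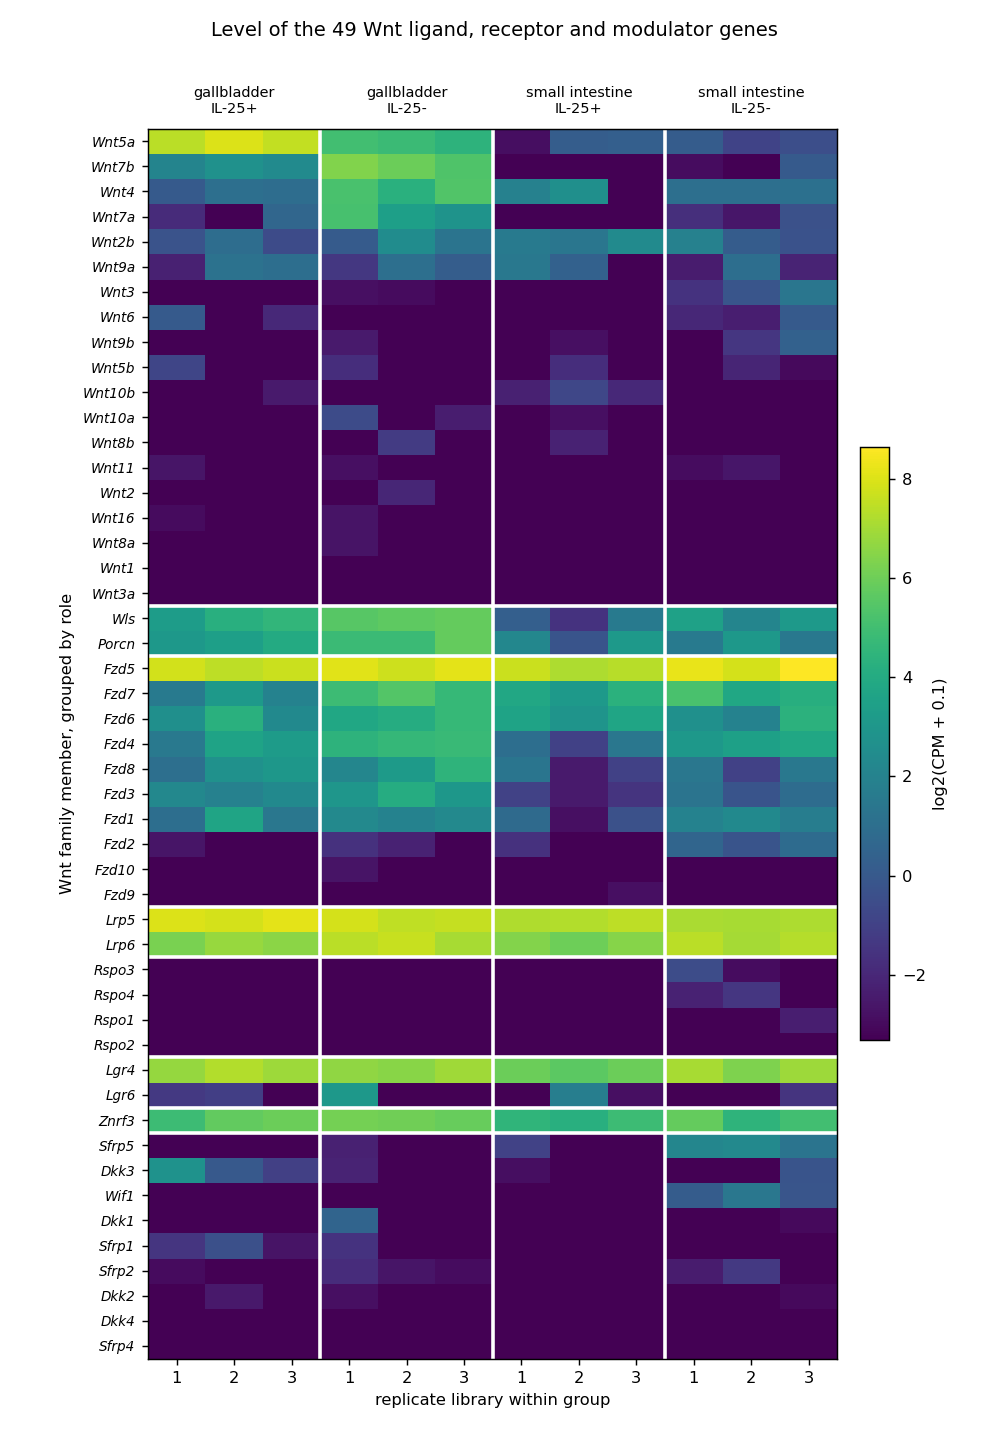
Level of each of the 49 genes (rows, grouped by role with white lines between roles) in each of the 12 libraries (columns, 3 per group), as log2 of CPM plus 0.1, in colour. Wnt5a is brightest in the IL-25+ gallbladder libraries, at 169 to 255 CPM, Fzd5, Lrp5, Lrp6 and Lgr4 are bright in every library, and the rows of 5 genes are dark throughout.

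Wnt5a, the ligand best known for signalling without beta-catenin, was the leading Wnt transcript of IL-25+ gallbladder cells. Wnt5a (ENSMUSG00000021994, chr14:28504750-28527448) was measured at 169, 255 and 186 CPM in IL-25+ gallbladder libraries 1 to 3, and at 32.2, 28.5 and 21.4 CPM in IL-25- gallbladder libraries. It was measured at 0.0377, 1.04 and 1.14 CPM in IL-25+ and at 1.01, 0.434 and 0.635 CPM in IL-25- small intestine libraries. Each gallbladder group lay above both small intestine groups without overlap, and the 2 gallbladder groups did not overlap.

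Wnt5a rose in IL-25+ over IL-25- gallbladder cells by 2.89 ± 0.58 on the log2 scale (estimate ± SE, adjusted p = 0.00276 in edgeR). Over small intestine it was higher in the gallbladder by 8.11 ± 0.75 among IL-25+ cells (adjusted p = 1.7e-05) and by 5.29 ± 0.67 among IL-25- cells (adjusted p = 0.000159). These 3 calls held in every alternative that was run. Between the gates of the small intestine its difference was 0.08 ± 0.64 (adjusted p = 0.946), and the difference between the 2 gate effects was 2.82 ± 0.85 and did not pass the test (adjusted p = 0.0576).

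In IL-25- gallbladder libraries 1, 2 and 3 Wnt5a stood at 15.8, 14.0 and 10.5% of its IL-25+ gallbladder mean. The 12 tuft cell markers stood at medians of 0.788, 0.217 and 0.105% of theirs in the same libraries, and their highest single values were 7.98, 1.87 and 0.571%. In bulk samples, fewer cells of a type and less RNA per cell cannot be told apart. The collagen genes Col1a1, Col1a2 and Col3a1 of the stromal marker list were each at most 0.309 CPM in the 6 gallbladder libraries. The 12 genes of that list summed to 1.6 to 8.72 CPM in IL-25+ and 2.57 to 13.3 CPM in IL-25- gallbladder libraries. In the same order, myeloid markers summed to 6.38 to 25.1 and 53.6 to 231 CPM, and enteric glia and neuron markers to 7.94 to 24.4 and 32.4 to 36.7 CPM. Endothelial markers summed to 240 to 358 CPM, almost all from Tek, and to 0.13 to 0.968 CPM. Mesothelial markers reached at most 5.98 and 5.91 CPM, and lymphocyte markers 0.029 and 0.267 CPM. The part of such cells in the Wnt5a level was not tested. Exons of Wnt5a overlap an antisense gene, Gm2670, over 358 bases (4.6% of its exonic length), and reads of the 2 genes cannot be told apart there without strand.

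Wnt7b, Wnt7a and Wnt4 fell in IL-25+ relative to IL-25- gallbladder cells, opposite to Wnt5a. Wnt7b and Wnt7a are closely related ligands of the beta-catenin pathway, and Wnt4 is known for its part in the development of kidney and reproductive tract. Wnt7b (ENSMUSG00000022382, chr15:85535437-85582473) was measured at 4.15, 6.53 and 5.25 CPM in IL-25+ gallbladder libraries 1 to 3 and at 82.8, 62.1 and 40.4 CPM in IL-25- gallbladder libraries. Its groups did not overlap, and the log2 difference was -3.54 ± 0.99 (adjusted p = 0.0254 in edgeR).

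This Wnt7b call was lost without a filter on low counts (adjusted p = 0.0987). It was also lost without IL-25+ gallbladder library 1, 2 or 3 (0.0891, 0.0661 and 0.0782) and without IL-25- gallbladder library 1 or 2 (0.0515 and 0.054), with log2 differences between -3.77 and -3.29 in all alternatives. In the small intestine Wnt7b had 0 counts in the 3 IL-25+ libraries and 1, 0 and 37 counts in IL-25- libraries 1 to 3. Its difference between the gates there did not pass the test (adjusted p = 0.0596).

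Across tissues Wnt7b was at least 132-fold higher in the gallbladder among IL-25+ cells, taking 3 counts over the 3 small intestine libraries as the floor (adjusted p = 0.00326), and at least 120-fold without IL-25+ gallbladder library 2. Among IL-25- cells it was higher in the gallbladder by 7.5 ± 1.21 (log2, adjusted p = 0.00173). That difference was 11.67 without IL-25- small intestine library 3, which held 37 of the 38 counts of its group, and without both doubtful libraries it was 11.39. Both tissue calls held in every alternative. The antisense gene AU022754 overlaps 324 exonic bases of Wnt7b (6.6%).

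Wnt7a (ENSMUSG00000030093, chr6:91363981-91411363) was measured at 0.174, 0 and 1.45 CPM in IL-25+ and at 35.8, 10.9 and 7.02 CPM in IL-25- gallbladder libraries 1 to 3. The groups did not overlap, with a log2 difference of -5.02 ± 1.46 (adjusted p = 0.0259), which was -7.55 without IL-25+ gallbladder library 3. The call was lost without IL-25+ gallbladder library 1 (0.0836), without IL-25- gallbladder library 1 (0.104) and without both doubtful libraries (0.108).

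Wnt7a was at 0 counts in IL-25+ and at 7, 2 and 27 counts in IL-25- small intestine libraries 1 to 3, a difference that did not pass the test (adjusted p = 0.0613). Among IL-25+ cells it was called higher in the gallbladder, by at least 15.4-fold (adjusted p = 0.0411), although the groups overlapped at 0. That call rests on IL-25+ gallbladder library 3, which held 54 of 60 counts: leaving it out gave a bound of 2.48-fold and an adjusted p of 0.166. It was also lost without each IL-25+ small intestine library (0.0936 to 0.0985), without IL-25- small intestine library 1 (0.0575) and without IL-25- gallbladder library 2 (0.0513), and it ended in 9 of 19 alternatives in all.

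Among IL-25- cells Wnt7a was higher in the gallbladder by 5.77 ± 1.52 on the log2 scale (adjusted p = 0.0178). That call was lost without IL-25- small intestine library 1 or 2 (0.0684 and 0.0587), without IL-25- gallbladder library 1 (0.0652) and without both doubtful libraries (0.079).

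Wnt4 (ENSMUSG00000036856, chr4:137277489-137299726) was measured at 0.958, 2.0 and 1.83 CPM in IL-25+ and at 36.7, 19.1 and 42.6 CPM in IL-25- gallbladder libraries, groups that did not overlap. The log2 difference was -4.36 ± 1.12 (adjusted p = 0.0119 in edgeR) and held in every alternative. In the small intestine it was measured at 3.74, 6.14 and 0 CPM in IL-25+ and at 1.99, 1.97 and 2.01 CPM in IL-25- libraries, groups that overlapped (difference 0.73 ± 0.99, adjusted p = 0.627). Among IL-25- cells Wnt4 was higher in the gallbladder by 4.04 ± 1.1 (adjusted p = 0.0179), a call that was lost without IL-25- small intestine library 1, 2 or 3 (0.061, 0.0592 and 0.0566) and without both doubtful libraries (0.0778). Among IL-25+ cells the difference between tissues was -1.04 ± 1 and did not pass the test (adjusted p = 0.491).

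The gate effect on Wnt4 differed between the tissues by -5.09 ± 1.46 on the log2 scale, with an adjusted p of 0.048 in edgeR. That call was lost in 15 of 18 alternatives, with values between -5.67 and -4.27 and adjusted p up to 0.117. It was lost without each of the 12 libraries in turn except IL-25+ small intestine library 3, without both doubtful libraries (0.115), without a filter (0.102), with a replicate block (0.0935) and with other size factors (0.0529).

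The level of these 3 ligands in IL-25+ gallbladder cells can be set beside markers of the rest of the gallbladder epithelium. The 9 gallbladder epithelial markers stood at medians of 7.56, 12.7 and 8.92% of their IL-25- gallbladder mean in IL-25+ libraries 1, 2 and 3. Wnt7b stood at 6.72, 10.6 and 8.5% of its own IL-25- mean in the same libraries, Wnt4 at 2.92, 6.11 and 5.58%, and Wnt7a at 0.974, 0 and 8.13%. The part of the other epithelial cells in these levels was not tested.

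**Figure D2:**
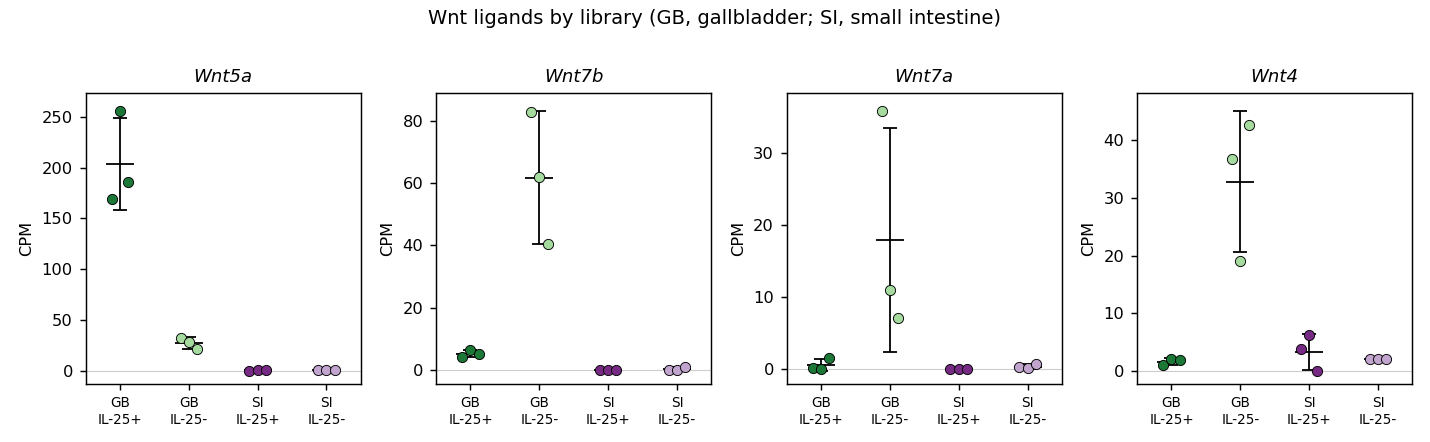
CPM of Wnt5a, Wnt7b, Wnt7a and Wnt4 in each library (points), with the group mean and SD (bars, n = 3), for IL-25+ and IL-25- gallbladder (GB) and small intestine (SI) groups. Wnt5a is highest in the IL-25+ gallbladder group, at 169 to 255 CPM, and the other 3 are highest in the IL-25- gallbladder group.

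Per kilobase of exon, the scale on which genes can be compared, the 19 ligands summed to 23.6, 35.5 and 26.5 CPM per kb in IL-25+ gallbladder libraries 1 to 3, and Wnt5a made up 91.6, 91.8 and 89.6% of that sum. In IL-25- gallbladder libraries the sum was 41.8, 26.4 and 24.3 CPM per kb. Wnt7b led in libraries 1 and 2 with 40.5 and 48.0%, and Wnt4 led in library 3 with 41.9%. The summed ligand level of the gallbladder gates overlapped, while the ligand that led it differed between them.

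In the small intestine the ligand sum was 2.45, 2.84 and 1.45 CPM per kb in IL-25+ and 1.74, 1.80 and 2.68 CPM per kb in IL-25- libraries, below every gallbladder library. No ligand led in all libraries of either group: Wnt4 led in IL-25+ libraries 1 and 2 (36.4 and 51.6%), Wnt2b in IL-25+ library 3 and IL-25- library 1 (86.7 and 51.1%), Wnt9a in IL-25- library 2 (31.8%) and Wnt3 in IL-25- library 3 (29.8%).

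**Figure D3:**
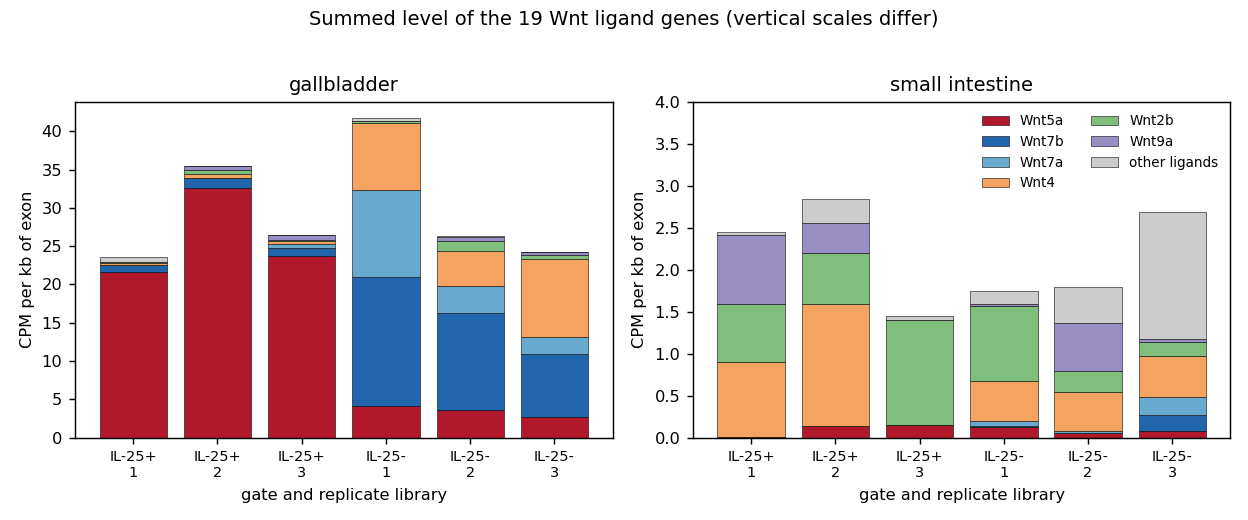
Summed CPM per kb of exon of the 19 ligand genes in each library, stacked by gene, for gallbladder (left) and small intestine (right), with vertical scales that differ between the panels. Wnt5a fills 89.6 to 91.8% of the IL-25+ gallbladder bars, Wnt7b, Wnt7a and Wnt4 fill most of the IL-25- gallbladder bars, and no small intestine bar exceeds 2.84 CPM per kb.

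Wnt2b and Wnt9a, the other 2 tested ligands, passed no test in any comparison. Wnt2b was measured at 0.726, 1.86 and 0.565 CPM in IL-25+ and 0.996, 5.49 and 2.34 CPM in IL-25- gallbladder libraries, and at 2.94, 2.53 and 5.27 CPM in IL-25+ and 3.74, 1.03 and 0.711 CPM in IL-25- small intestine libraries. The 2 IL-25+ groups of Wnt2b did not overlap. Wnt9a lay between 0 and 2.72 CPM over all libraries, and its groups overlapped in every comparison.

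Wnt3, the ligand that mouse Paneth cells supply to crypt stem cells, was not tested. It had 0 counts in the 3 IL-25+ gallbladder libraries and 3, 1 and 0 counts in the IL-25- ones, and in the small intestine 0 counts in the 3 IL-25+ libraries and 8, 24 and 97 counts in IL-25- libraries 1 to 3. The 10 Paneth cell markers summed to 956, 6450 and 1440 CPM in those IL-25- libraries and to 32.6 to 149 CPM in IL-25+ small intestine libraries. The part of Paneth cells in the Wnt3 counts was not tested. Of the other untested ligands, Wnt6 had 39 counts in IL-25+ gallbladder and 45 in IL-25- small intestine libraries and 0 elsewhere, and Wnt10a had 41 of its 45 counts in IL-25- gallbladder library 1. Wnt9b had 48 of its 63 counts in IL-25- small intestine library 3, Wnt10b had 19 of 22 in IL-25+ small intestine cells, and each remaining one had at most 40 counts in all.

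PORCN and WLS, which every lipid-bearing Wnt needs for its release, were highest in IL-25- gallbladder cells. Wls (ENSMUSG00000028173, chr3:159839672-159938664) was measured at 9.79, 18.8 and 23.4 CPM in IL-25+ and at 45.7, 50.5 and 57.3 CPM in IL-25- gallbladder libraries. It was measured at 1.13, 0.241 and 2.84 CPM in IL-25+ and at 11.5, 4.2 and 8.81 CPM in IL-25- small intestine libraries. The gates did not overlap in either tissue, and neither did the tissues in either gate.

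Wls fell in IL-25+ small intestine cells by 2.54 on the log2 scale (SE 0.66, adjusted p = 0.0118 in edgeR), and the gallbladder difference of -1.56 ± 0.62 did not pass the test (adjusted p = 0.0781). That gallbladder difference did pass without IL-25+ small intestine library 2 or 3 (0.028 and 0.0431) and in a fit of the gallbladder groups alone (0.015). Wls was higher in the gallbladder by 3.62 ± 0.68 among IL-25+ cells (adjusted p = 0.00199) and by 2.64 ± 0.64 among IL-25- cells (adjusted p = 0.00942). The 3 calls held in every alternative, and the difference between the gate effects was 0.98 ± 0.87 (adjusted p = 0.565).

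Porcn (ENSMUSG00000031169, chrX:8193848-8206525) was measured at 8.33, 10.6 and 16.1 CPM in IL-25+ and at 28.2, 28.8 and 56.5 CPM in IL-25- gallbladder libraries, and the groups did not overlap. In the small intestine it was measured at 4.53, 0.762 and 8.39 CPM in IL-25+ and at 3.0, 8.14 and 2.64 CPM in IL-25- libraries. Porcn was higher in the gallbladder by 3.04 ± 0.73 among IL-25- cells (adjusted p = 0.00867, held in every alternative). The gallbladder gate difference of -1.69 ± 0.69 did not pass (adjusted p = 0.0868), nor did the tissue difference among IL-25+ cells (1.36 ± 0.69, adjusted p = 0.175).

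Fzd5, a Frizzled of the beta-catenin pathway that intestinal Paneth cells need in the mouse, made up 59.7 to 90.5% of the summed Frizzled level per kb in every library. Fzd5 (ENSMUSG00000045005, chr1:64730558-64737751) was measured at 230, 175 and 204 CPM in IL-25+ and at 273, 210 and 283 CPM in IL-25- gallbladder libraries, which overlapped. Small intestine libraries held it at 208, 143 and 165 CPM in IL-25+ and at 304, 235 and 402 CPM in IL-25- libraries, which did not. It fell in IL-25+ small intestine cells by 0.87 on the log2 scale (SE 0.22, adjusted p = 0.0119). The call was lost without IL-25+ small intestine library 2 (0.0594), without IL-25- small intestine library 3 (0.0612) and without both doubtful libraries (0.0705).

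Fzd5 passed no test in the gallbladder gate comparison (-0.33 ± 0.22, adjusted p = 0.297) or between tissues, and its difference between gate effects was 0.53 ± 0.31 (adjusted p = 0.341). The gene Gm38058 on the opposite strand overlaps 17.8% of its exonic length.

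Fzd7, a receptor known to maintain mouse intestinal stem cells, came second to Fzd5 per kb in 8 of the 12 libraries. Fzd7 (ENSMUSG00000041075, chr1:59482424-59486955) was measured at 2.88, 8.95 and 3.88 CPM in IL-25+ and at 29.5, 43.2 and 25.6 CPM in IL-25- gallbladder libraries, without overlap. It fell in IL-25+ gallbladder cells by 2.65 on the log2 scale (SE 0.52, adjusted p = 0.00222), in every alternative. Its small intestine values were 14.3, 8.59 and 20.0 CPM in IL-25+ and 36.4, 13.8 and 17.9 CPM in IL-25- libraries, which overlapped (-0.67 ± 0.49, adjusted p = 0.344). The difference between the 2 gate effects was -1.98 ± 0.7 and did not pass the test (adjusted p = 0.0998).

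Fzd4, the receptor of Norrin as well as of Wnts, was measured at 2.76, 12.2 and 9.31 CPM in IL-25+ and at 21.6, 25.2 and 27.9 CPM in IL-25- gallbladder libraries. Levels in the small intestine were 1.92, 0.401 and 2.55 CPM in IL-25+ and 8.13, 11.2 and 14.0 CPM in IL-25- libraries. Gates did not overlap in either tissue. The fall in IL-25+ cells was 2.77 ± 0.66 on the log2 scale in the small intestine (adjusted p = 0.00729, in every alternative), and the gallbladder difference of -1.62 ± 0.62 did not pass (adjusted p = 0.07), except without IL-25+ small intestine library 2 (0.0341) and in DESeq2.

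Among IL-25+ cells Fzd4 was higher in the gallbladder by 2.31 ± 0.65 (adjusted p = 0.0202). This was lost without IL-25+ small intestine library 2 (0.0536), without IL-25+ gallbladder library 2 (0.0654) and when the compared groups were fitted alone (0.0561).

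Fzd3, which works in planar cell polarity and axon guidance, was measured at 4.68, 3.71 and 4.95 CPM in IL-25+ and at 7.76, 16.7 and 8.02 CPM in IL-25- gallbladder libraries. Intestinal libraries held it at 0.415, 0.0802 and 0.243 CPM in IL-25+ and at 2.34, 0.768 and 1.75 CPM in IL-25- libraries. No pair of compared groups overlapped. Fzd3 fell in IL-25+ small intestine cells by 2.7 on the log2 scale (SE 0.75, adjusted p = 0.017) and was higher in the gallbladder by 4.15 ± 0.79 among IL-25+ cells (adjusted p = 0.00206) and by 2.74 ± 0.72 among IL-25- cells (adjusted p = 0.0143).

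The Fzd3 difference among IL-25+ cells held in every alternative. Its small intestine gate call was lost without IL-25+ small intestine library 2 or 3 (0.0614 and 0.0569), without IL-25- small intestine library 1 (0.0545) and when the compared groups were fitted alone (0.0921). Its call among IL-25- cells was lost without IL-25- small intestine library 2 (0.051), without IL-25- gallbladder library 2 (0.0768) and without both doubtful libraries (0.0514).

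The other 4 tested Frizzleds, Fzd1, Fzd2, Fzd6 and Fzd8, passed no test. Fzd6 was measured at 5.01 to 19.3 CPM in IL-25+ and 13.8 to 25.6 CPM in IL-25- gallbladder libraries, and at 7.26 to 13.2 CPM in IL-25+ and 3.80 to 20.8 CPM in IL-25- small intestine libraries. Fzd1 and Fzd8 reached at most 12.6 and 22.2 CPM, and Fzd2 was highest in IL-25- small intestine libraries, at 1.39, 0.768 and 1.73 CPM. Fzd10 and Fzd9 had 4 and 1 counts in all.

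LRP5 and LRP6 are the co-receptors through which a Frizzled reaches beta-catenin. Lrp6 (ENSMUSG00000030201, chr6:134446476-134566965) was measured at 76.2, 111 and 94.7 CPM in IL-25+ and at 168, 197 and 137 CPM in IL-25- gallbladder libraries. It stood at 85.5, 64.8 and 88.4 CPM in IL-25+ and at 169, 130 and 159 CPM in IL-25- small intestine libraries. The gates did not overlap in either tissue. Lrp6 fell in IL-25+ cells by 0.83 on the log2 scale in the gallbladder (SE 0.21, adjusted p = 0.0106) and by 0.94 in the small intestine (SE 0.21, adjusted p = 0.00526), in every alternative, and the difference between these effects was 0.11 ± 0.3 (adjusted p = 0.881).

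Lrp5 (ENSMUSG00000024913, chr19:3584828-3686564) was measured at 257, 235 and 289 CPM in IL-25+ and at 236, 183 and 192 CPM in IL-25- gallbladder libraries. Its values were 150, 156 and 173 CPM in IL-25+ and 141, 136 and 145 CPM in IL-25- small intestine libraries. Its gate differences of 0.36 ± 0.16 in the gallbladder and 0.18 ± 0.16 in the small intestine did not pass the test (adjusted p = 0.117 and 0.439).

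Lrp5 was higher in the gallbladder by 0.71 ± 0.16 among IL-25+ cells (adjusted p = 0.00638, in every alternative) and by 0.53 ± 0.16 among IL-25- cells (adjusted p = 0.0284). The call among IL-25- cells was lost without IL-25- small intestine library 1 or 2 (0.0702 and 0.0706), without IL-25- gallbladder library 1 (0.0797), without both doubtful libraries (0.135), without a filter (0.0525) and when the compared groups were fitted alone (0.0609).

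**Figure D4:**
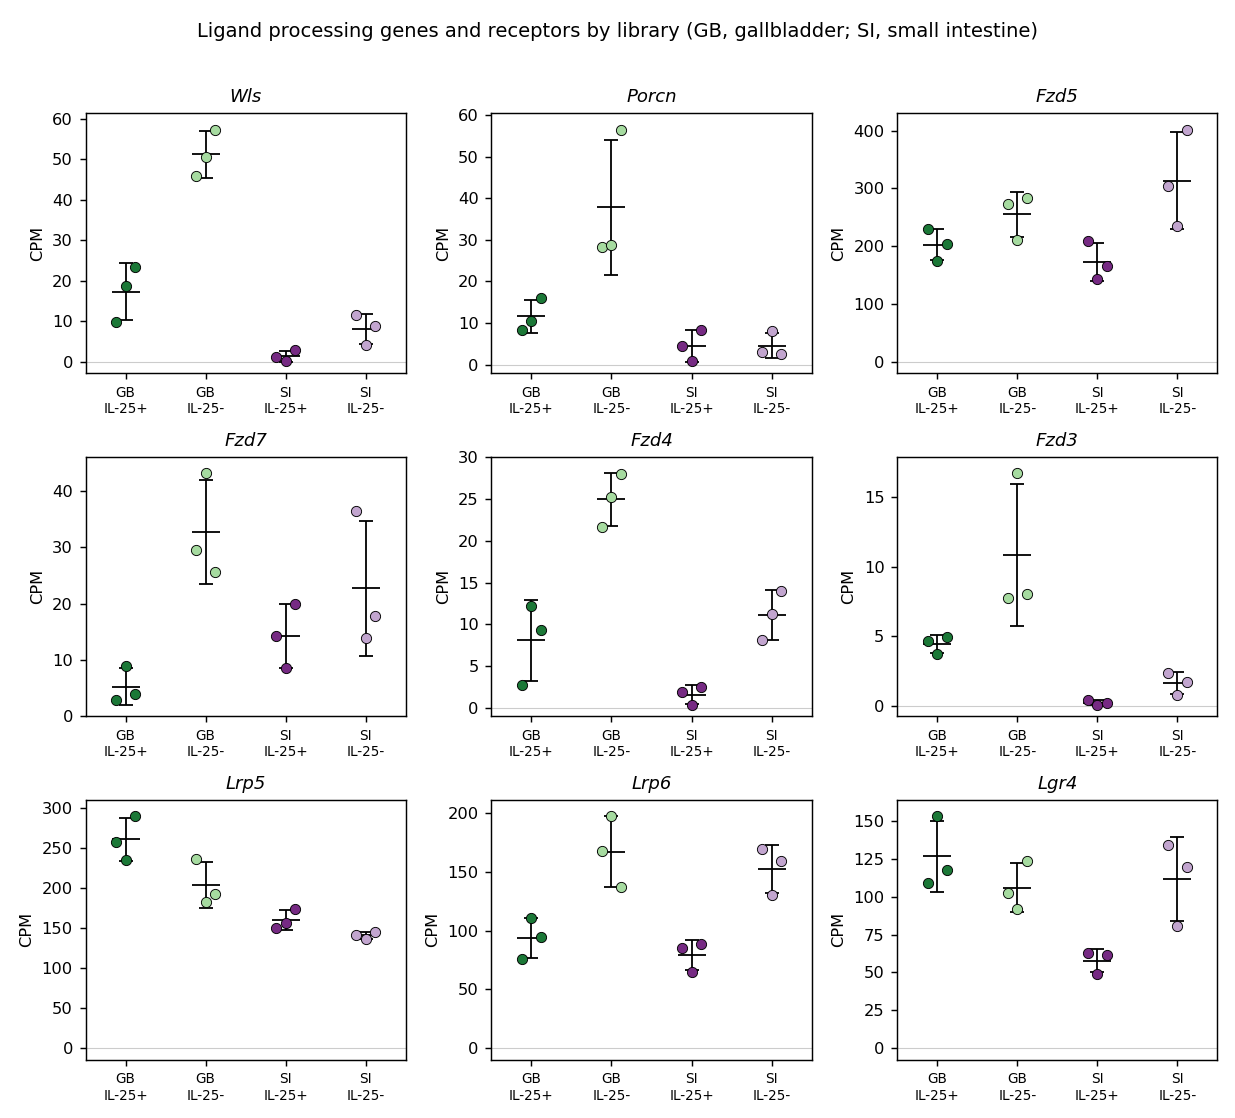
CPM of the ligand processing genes Wls and Porcn, of 4 Frizzleds, both co-receptors and Lgr4 in each library (points), with group mean and SD (bars, n = 3), for IL-25+ and IL-25- gallbladder (GB) and small intestine (SI) groups; each panel has its own scale starting at or just below 0. Wls, Fzd3 and Fzd4 are lowest in the IL-25+ small intestine group, Lrp6 is lower in the IL-25+ group of both tissues, and Lgr4 stands at 48.9 to 62.8 CPM in the IL-25+ small intestine group against 80.6 CPM or more in every other library.

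LGR4 and LGR6 are receptors for R-spondins. Lgr4 (ENSMUSG00000050199, chr2:109917647-110014257) was measured at 109, 153 and 118 CPM in IL-25+ and at 102, 92.1 and 124 CPM in IL-25- gallbladder libraries, which overlapped. Its intestinal values were 62.8, 48.9 and 61.7 CPM in IL-25+ and 134, 80.6 and 120 CPM in IL-25- libraries, which did not overlap. The IL-25+ small intestine group lay below the other 3.

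Lgr4 fell in IL-25+ small intestine cells by 0.95 on the log2 scale (SE 0.23, adjusted p = 0.00794) and was higher in the gallbladder by 1.13 ± 0.23 among IL-25+ cells (adjusted p = 0.00316). Both calls held in every alternative. In the gallbladder the gate difference was 0.26 ± 0.23 (adjusted p = 0.435), and among IL-25- cells the tissue difference was -0.07 ± 0.23 (adjusted p = 0.856). The difference between the gate effects of the 2 tissues was 1.21 ± 0.32 and passed the test (adjusted p = 0.0325).

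This difference between gate effects was lost in 9 of 18 alternatives, with adjusted p up to 0.118. Those 9 left out IL-25+ small intestine library 1, 2 or 3, IL-25- small intestine library 1 or 3, IL-25+ gallbladder library 2, IL-25- gallbladder library 1 or 2, or both doubtful libraries. Its value lay between 1.04 and 1.39 throughout.

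Lgr6 was read mainly in a pair of libraries, with 582 counts in IL-25- gallbladder library 1 and 85 in IL-25+ small intestine library 2, against 0 to 10 in the other 10, and passed no test. The R-spondins, their ligands, had 0 counts in all 6 gallbladder libraries and in all 3 IL-25+ small intestine libraries. Among IL-25- small intestine libraries Rspo3 had 20, 1 and 0 counts, Rspo4 had 4, 8 and 0 counts and Rspo1 had 0, 0 and 4 counts.

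Znrf3, the ubiquitin ligase that R-spondins withdraw, was measured at 29.1, 54.6 and 62.4 CPM in IL-25+ and at 71.2, 66.8 and 58.2 CPM in IL-25- gallbladder libraries, and at 22.4, 18.7 and 29.6 CPM in IL-25+ and 56.8, 21.8 and 32.1 CPM in IL-25- small intestine libraries. It passed no test. Its difference between tissues among IL-25+ cells was 1.05 ± 0.36 with an adjusted p of 0.0524, and passed in some alternatives, such as a fit restricted to the compared groups (0.0225) and without IL-25+ gallbladder library 1 (0.0199).

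The secreted inhibitors were scarce, and the 2 that were called, Sfrp5 and Wif1, were read almost only in IL-25- small intestine cells. Both passed the filter on low counts only through that group, so they had to differ from it. Their tests are therefore descriptions. Sfrp5 (ENSMUSG00000018822, chr19:42197971-42202252), a decoy that binds Wnts, was measured at 4.36, 4.94 and 2.34 CPM in IL-25- small intestine libraries. It had 0 counts in IL-25+ gallbladder libraries, 8, 0 and 0 counts in IL-25- gallbladder libraries and 11, 0 and 0 counts in IL-25+ small intestine libraries.

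Among IL-25- cells Sfrp5 was lower in the gallbladder, with a log2 difference of -6.38 (SE 2.02, adjusted p = 0.04). The difference was -9.9 without IL-25- gallbladder library 1, which held all 8 counts of its group. That value, and the one without both doubtful libraries, are fitted against a group at 0 counts and depend on the prior count. The call was lost without IL-25- small intestine library 1, 2 or 3 (0.0806, 0.0828 and 0.0623), without IL-25- gallbladder library 2 or 3 (0.108 and 0.106) and without both doubtful libraries (-10.12, adjusted p = 0.056). Between the small intestine gates the difference of -4.76 ± 1.88 did not pass (adjusted p = 0.0842). It did without IL-25+ small intestine library 1, the only one with counts (-10.09, adjusted p = 0.0273), a value again fitted against a group at 0 counts.

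Wif1 (ENSMUSG00000020218, chr10:121033960-121100650), which also binds Wnts, had 34, 77 and 31 counts in IL-25- small intestine libraries 1 to 3 and 0 counts in the other 9 libraries. It was at least 35-fold lower in IL-25+ than in IL-25- small intestine cells (adjusted p = 0.0244) and at least 62.4-fold lower in IL-25- gallbladder than in IL-25- small intestine cells (adjusted p = 0.0208). Without IL-25- small intestine library 2 these bounds were 22.6-fold and 40.3-fold and neither call was kept (0.0589 and 0.0542), nor was either with a replicate block (0.0673 and 0.0617). The first was also lost without IL-25+ small intestine library 1, 2 or 3 (0.0544, 0.059 and 0.0601), and the second without both doubtful libraries (0.0807). Beside Sfrp5 and Wif1, the 8 enteroendocrine markers summed to 21.2 to 380 CPM in IL-25+ and 5900 to 13900 CPM in IL-25- small intestine libraries, and the 7 goblet cell markers to 123 to 527 CPM in IL-25+ and 4370 to 59600 CPM in IL-25- ones. The 10 Paneth cell markers summed to 32.6 to 149 CPM in IL-25+ and 956 to 6450 CPM in IL-25- small intestine libraries. For the 10 enterocyte markers these sums were 7820 to 9070 CPM and 17500 to 27500 CPM. The part of these cells was not tested.

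Dkk3, a member of the Dickkopf family whose part in Wnt signalling is debated, had 236, 25 and 14 counts in IL-25+ gallbladder libraries, 9, 0 and 0 in IL-25- gallbladder libraries, 1, 0 and 0 in IL-25+ small intestine libraries and 0, 0 and 30 in IL-25- small intestine libraries. Its gallbladder gate difference of 5.74 ± 2.26 did not pass (adjusted p = 0.0762), and neither did its difference between tissues among IL-25+ cells (adjusted p = 0.0528), and IL-25+ gallbladder library 1 held 236 of the 275 counts of its group. Both passed in some alternatives, among them the fit without both doubtful libraries (0.0354 and 0.0274). Dkk1 had 95 of its 96 counts in IL-25- gallbladder library 1, and Sfrp1 had 29 counts in IL-25+ and 17 in IL-25- gallbladder libraries and 0 in the small intestine.

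Promoters are printed for Wnt4 and Wnt7a, called between the gallbladder gates, and for Sfrp5 and Wif1, read almost only in IL-25- small intestine cells. Of the other members called between the gallbladder gates, Wnt5a, Wnt7b and Lrp6 had no promoter entry, and that of Fzd7 is not printed. For these 4 genes the stretch from 250 bases before to 50 bases after the start was taken from RefSeq (GRCm38.p6). It is printed 5' to 3' on the strand of the gene, with each CG dinucleotide in capitals.
Wnt4: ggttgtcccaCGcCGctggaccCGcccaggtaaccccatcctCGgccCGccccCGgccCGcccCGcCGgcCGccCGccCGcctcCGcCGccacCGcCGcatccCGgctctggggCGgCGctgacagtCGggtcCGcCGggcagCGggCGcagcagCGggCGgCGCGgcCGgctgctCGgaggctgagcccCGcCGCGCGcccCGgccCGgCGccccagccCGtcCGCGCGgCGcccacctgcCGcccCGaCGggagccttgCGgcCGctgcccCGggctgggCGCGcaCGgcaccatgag
Wnt7a: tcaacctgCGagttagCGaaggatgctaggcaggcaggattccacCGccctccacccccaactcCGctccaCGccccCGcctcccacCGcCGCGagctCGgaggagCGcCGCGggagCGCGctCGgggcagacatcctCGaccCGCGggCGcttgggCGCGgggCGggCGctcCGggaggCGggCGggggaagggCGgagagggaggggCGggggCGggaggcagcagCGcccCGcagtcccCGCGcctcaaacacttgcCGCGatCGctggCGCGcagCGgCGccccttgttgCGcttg
Sfrp5: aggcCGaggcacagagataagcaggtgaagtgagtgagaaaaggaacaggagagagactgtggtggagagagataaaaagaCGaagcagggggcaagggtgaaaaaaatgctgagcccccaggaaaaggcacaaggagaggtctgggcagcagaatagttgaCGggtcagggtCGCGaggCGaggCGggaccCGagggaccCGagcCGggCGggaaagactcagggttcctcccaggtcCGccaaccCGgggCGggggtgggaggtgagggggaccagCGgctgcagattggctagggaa
Wif1: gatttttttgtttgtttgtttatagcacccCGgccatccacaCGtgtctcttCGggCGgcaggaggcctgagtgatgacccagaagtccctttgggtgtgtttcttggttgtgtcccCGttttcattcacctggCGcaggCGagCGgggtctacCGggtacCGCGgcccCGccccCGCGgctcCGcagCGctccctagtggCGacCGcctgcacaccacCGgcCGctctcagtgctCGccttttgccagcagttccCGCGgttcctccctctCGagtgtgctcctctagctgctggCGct
These lie at chr4:137277385-137277684 (plus strand), chr6:91411304-91411603 (minus strand), chr19:42202203-42202502 (minus strand) and chr10:121033754-121034053 (plus strand). G and C made up 84.3% of the Wnt4 stretch with 51 CG dinucleotides, 76% of that of Wnt7a with 42, 61.3% of that of Sfrp5 with 15 and 63% of that of Wif1 with 25. The medians over all 32851 promoters of the table were 52.7% and 7.

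Of the 49 members 31 had an entry in that table. On both strands CTTTGAA, a spelling of the TCF/LEF motif, was found in the promoter of Dkk1 among members and in 5.14% of all promoters, and CTTTGAT, which shares its first 6 letters, in those of Wnt11 and Wnt5b and in 3.73% of all. The octamer ATGCAAAT was found in those of Lgr4 and Sfrp2 and in 1.74% of all promoters. TATAAA was found in those of Dkk1, Dkk2, Fzd1, Wif1 and Wnt11 and in 13.6% of all promoters. These matches describe letters only.

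Counted over the tested members, 6 of 24 (25%) were called between the gallbladder gates, against 26.8% of all 16636 genes tested: Wnt5a rose, against 12.4% of all genes higher, and Wnt7b, Wnt7a, Wnt4, Fzd7 and Lrp6 fell, against 14.4% lower. In the small intestine 7 of 24 (29.2%) were called, against 27.2% of all genes, and all 7 (Wif1, Wls, Fzd3, Fzd4, Fzd5, Lrp6 and Lgr4) fell in IL-25+ cells, against 12.8% of all genes lower. Without IL-25+ small intestine library 2, 4 members were called, and 3192 of all genes against 4529. In both gate comparisons the share of members called in either direction was near that of all genes. Lrp6 was the gene called in both tissues.

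The tested members had a median log2 difference of -1.2 in the gallbladder and -0.95 in the small intestine, against -0.15 and -0.073 over all genes. With genes against a group at 0 counts set to their bound, and Wif1 left out of the gallbladder median, these were -1.1 and -0.94. Since members that passed the filter through 1 group alone had to differ, these medians are descriptions.

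**Figure D5:**
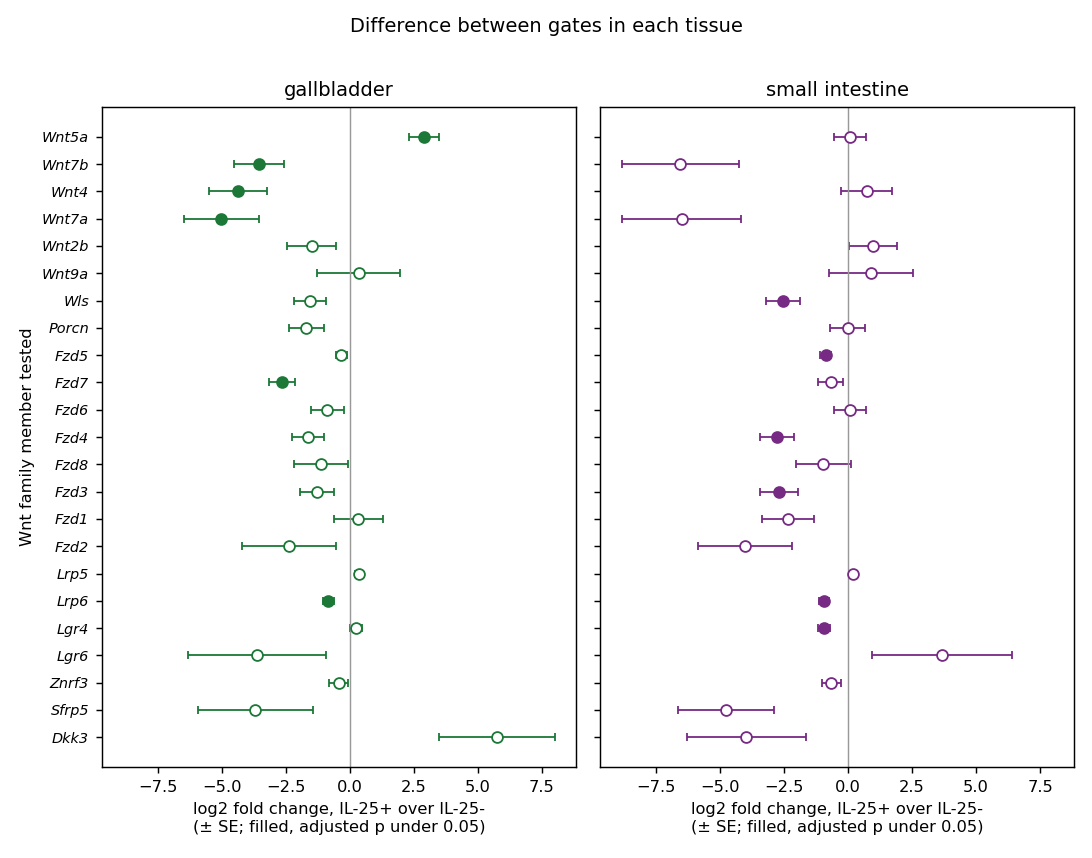
Log2 fold change of IL-25+ over IL-25- cells (points, with SE) for 23 tested members in gallbladder (left) and small intestine (right), filled where the adjusted p is under 0.05; Wif1, read in 1 group alone, is not drawn, and the Wnt7a and Wnt7b values of the small intestine and the Sfrp5 value of the gallbladder are fitted against a group at 0 counts and depend on the prior count. Wnt5a is the filled point above 0 in the gallbladder, at 2.89, and all filled points of the small intestine lie below 0.

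Between tissues, 8 of 24 tested members (33.3%) were called among IL-25+ cells, against 23.7% of all genes, and all 8 (Wnt5a, Wnt7b, Wnt7a, Wls, Fzd3, Fzd4, Lrp5 and Lgr4) were higher in the gallbladder, against 10.5% of all genes higher and 13.1% lower. Among IL-25- cells 10 of 24 (41.7%) were called, against 24.6% of all genes. Of these 8 (Wnt5a, Wnt7b, Wnt7a, Wnt4, Porcn, Wls, Fzd3 and Lrp5) were higher in the gallbladder, against 13.0% of all genes, and Sfrp5 and Wif1 were lower, against 11.7%. Members that passed the filter through 1 group alone, as Wif1 did, had to differ, so these shares are descriptions.

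Without IL-25- small intestine library 2, or without both doubtful libraries, 4 of those 10 were called, in each case Wnt5a, Wnt7b, Porcn and Wls. Over all genes these fits called 3210 and 3008, against 4099 with all libraries. The median log2 difference of the tested members was 0.88 among IL-25+ cells and 0.76 among IL-25- cells, against -0.087 and -0.026 over all genes, and with genes at their bound it was 1.1 and 0.76. These medians are descriptions for the same reason. In the test of whether the gate effect differed between the tissues, 2 of 24 (8.33%) were called, against 9.23% of all genes: Lgr4 was called with a positive difference, against 3.63% of all genes, and Wnt4 with a negative one, against 5.6%. That count was 1 or 0 without any 1 of the 12 libraries and 0 without both doubtful libraries.

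The other genes of the pathway were taken as 4 lists. Among other secreted and surface regulators, 11 of 21 genes were tested. Between the gallbladder gates 1 rose, 2 fell and 8 did not pass, and in the small intestine 1 rose, 6 fell and 4 did not pass, against the 26.8% and 27.2% of all genes called. Lgr5, an R-spondin receptor that marks intestinal stem cells, was the gene that rose in the gallbladder. It stood at 112, 134 and 112 CPM in IL-25+ and at 2.01, 0.0886 and 0 CPM in IL-25- gallbladder libraries, against 32.3, 19.5 and 27.8 CPM in IL-25+ and 105, 50.2 and 31.9 CPM in IL-25- small intestine libraries.

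The Lgr5 difference between the gallbladder gates was 7.27 ± 1.22 on the log2 scale (adjusted p = 0.00155), and 11.2 without IL-25- gallbladder library 1, the one with the higher enterocyte markers. Among IL-25- cells it was lower in the gallbladder, with a log2 difference of -6.33 (SE 1.17, adjusted p = 0.00335), which was -10.24 without that library. The difference between its gate effects in the 2 tissues was 8.5 ± 1.5 (adjusted p = 0.0062). These 3 calls held in every alternative. Among IL-25+ cells the Lgr5 difference between tissues did not pass the test (2.17 ± 0.96, adjusted p = 0.131). Neither did its difference between the small intestine gates (-1.23 ± 0.93, adjusted p = 0.366).

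Rnf43, the partner ligase of Znrf3, fell in IL-25+ small intestine cells, with 18.3, 5.82 and 11.4 CPM there against 98.4, 55.8 and 42.6 CPM in IL-25- small intestine cells (-2.47 ± 0.48, adjusted p = 0.00212, in every alternative). In the gallbladder its gates overlapped, with 28.5, 42.4 and 25.1 CPM in IL-25+ and 49.2, 32.4 and 18.2 CPM in IL-25- libraries. Tspan12, which assists FZD4 in Norrin signalling, was measured at 3.75, 7.87 and 1.21 CPM in IL-25+ and at 61, 66.3 and 50.1 CPM in IL-25- gallbladder libraries (-3.79 ± 0.52, adjusted p = 0.00016, in every alternative). Atp6ap2, which links LRP6 to the proton pump, rose in IL-25+ small intestine cells, at 244, 337 and 294 CPM there against 68.5, 64.1 and 60.2 CPM in IL-25- small intestine cells (2.18 ± 0.36, adjusted p = 0.000575, in every alternative), while its gallbladder gates overlapped.

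Of 16 genes of alternative Wnt receptors and planar polarity, 15 were tested. Between the gallbladder gates 2 rose, 2 fell and 11 did not pass, against 26.8% of all genes called, and between the small intestine gates 3 rose, 0 fell and 12 did not pass, against 27.2% of all genes. Prickle2, a cytoplasmic planar polarity protein, was measured at 48.5, 40.8 and 51.3 CPM in IL-25+ and at 0.0702, 0 and 0.0974 CPM in IL-25- gallbladder libraries, and at 13.3, 23.6 and 25.1 CPM in IL-25+ and 5.87, 0.768 and 0.863 CPM in IL-25- small intestine libraries. It rose with the gate by 9.58 ± 1.03 in the gallbladder (adjusted p = 1.99e-05) and by 3.04 ± 0.73 in the small intestine (adjusted p = 0.00762, and a difference of 4.65 without IL-25- small intestine library 1), and the effects differed by 6.54 ± 1.14 (adjusted p = 0.00311).

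Vangl1, a membrane protein of planar polarity, moved in opposite directions. Its values were 3.54, 3.04 and 2.88 CPM in IL-25+ and 22.9, 15.2 and 14.5 CPM in IL-25- gallbladder libraries, a fall of 2.47 ± 0.49 on the log2 scale (adjusted p = 0.00216). Small intestine libraries held it at 8.53, 12.5 and 9.65 CPM in IL-25+ and at 2.31, 1.17 and 3.43 CPM in IL-25- libraries, a rise of 2.15 ± 0.48 (adjusted p = 0.00532). The effects differed by -4.62 ± 0.69 (adjusted p = 0.00105), and these Vangl1 and Prickle2 calls held in every alternative. Ror2, a receptor for Wnt5a, had 0 CPM in the 3 IL-25+ gallbladder libraries and 0.0281, 0 and 0 CPM in the IL-25- ones, against 2.25, 1.64 and 1.68 CPM in IL-25- small intestine libraries. Its difference among IL-25- cells passed the test (adjusted p = 0.0293), but not without any 1 of the 6 IL-25- libraries (0.0511 to 0.0939).

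The intracellular relay of the pathway was measured in full, with 30 of 30 genes tested. Between the gallbladder gates 4 rose, 3 fell and 23 did not pass, against 26.8% of all genes called. Between the small intestine gates 6 rose, 3 fell and 21 did not pass, against 27.2% of all genes. Ctnnb1, which encodes beta-catenin, was measured at 338, 310 and 348 CPM in IL-25+ and at 717, 732 and 624 CPM in IL-25- gallbladder libraries (-1.06 ± 0.15, adjusted p = 0.000158). Its small intestine values were 426, 372 and 403 CPM in IL-25+ and 401, 444 and 427 CPM in IL-25- libraries, which overlapped, and the effects differed by -0.98 ± 0.2 (adjusted p = 0.0091).

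Dvl1, a Dishevelled protein that relays from the Frizzleds, rose in IL-25+ cells of both tissues. It stood at 102, 54.8 and 89.2 CPM in IL-25+ against 23, 25.3 and 12 CPM in IL-25- gallbladder libraries (2.03 ± 0.3, adjusted p = 0.000269) and at 163, 186 and 171 CPM in IL-25+ against 28.9, 39.8 and 36.1 CPM in IL-25- small intestine libraries (2.31 ± 0.3, adjusted p = 0.000104). Tle2, a corepressor of TCF factors, was higher in the gallbladder among IL-25+ cells, with 35.3, 18.1 and 22.8 CPM in IL-25+ gallbladder against 0.566, 1.04 and 0.851 CPM in IL-25+ small intestine libraries (4.95 ± 0.44, adjusted p = 8.75e-06). Tle1, another such corepressor, had 31.8, 39.4 and 39.2 CPM in IL-25+ against 22.3, 20.9 and 23.1 CPM in IL-25- gallbladder libraries, and 11.5, 8.55 and 10.9 CPM in IL-25+ against 44.5, 35.8 and 31.4 CPM in IL-25- small intestine libraries. Its gate effects differed by 2.58 ± 0.36 (adjusted p = 0.000621), the lowest adjusted p of the list in that test. These Ctnnb1, Dvl1, Tle2 and Tle1 calls held in every alternative.

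Of 17 Wnt target genes of intestinal epithelium, 16 were tested. Between the gallbladder gates 5 rose, 6 fell and 5 did not pass, against 26.8% of all genes called. Between the small intestine gates 2 rose, 6 fell and 8 did not pass, against 27.2% of all genes. Prox1 and Sox9, transcription factors that tuft cells are known to express, rose in both tissues. Sox9 was measured at 1470, 1090 and 1000 CPM in IL-25+ against 124, 82.9 and 127 CPM in IL-25- gallbladder libraries (3.42 ± 0.36, adjusted p = 1.9e-05) and at 841, 1100 and 1060 CPM in IL-25+ against 245, 84.5 and 108 CPM in IL-25- small intestine libraries (2.78 ± 0.35, adjusted p = 8.8e-05). Prox1 rose by 4.26 ± 0.29 in the gallbladder (adjusted p = 5.31e-07) and by 2.99 ± 0.27 in the small intestine (adjusted p = 5.77e-06).

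Ccnd1, Myc and Cd44, genes of proliferation and adhesion, fell in both tissues, in every alternative. Ccnd1 was measured at 80.6, 106 and 89.7 CPM in IL-25+ and at 1330, 995 and 1030 CPM in IL-25- gallbladder libraries (-3.6 ± 0.56, adjusted p = 0.000713). Levels in the small intestine were 26.2, 10.1 and 4.99 CPM in IL-25+ and 248, 83 and 197 CPM in IL-25- libraries (-3.68 ± 0.57, adjusted p = 0.000656).

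Axin2, the feedback inhibitor most used as a readout of beta-catenin signalling, was measured at 3.69, 3.45 and 6.03 CPM in IL-25+ and at 6.69, 1.48 and 0.065 CPM in IL-25- gallbladder libraries. These overlapped through IL-25- gallbladder library 1 alone, a doubtful library, at 6.69 CPM. In libraries 2 and 3 the IL-25- values lay below every IL-25+ value. With all libraries Axin2 was not called between the gallbladder gates. Its IL-25- gallbladder level was below the 273, 119 and 101 CPM of IL-25- small intestine libraries (-5.87 ± 1.1, adjusted p = 0.00347, in every alternative). In IL-25+ small intestine libraries it was measured at 12, 9.63 and 12.2 CPM, below all of those IL-25- libraries (-3.87 ± 1, adjusted p = 0.0166). That gate call was lost without IL-25+ small intestine library 1, 2 or 3 (0.0557, 0.0659 and 0.0599) and without a filter (0.0548).

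Between tissues 5 of the 16 target genes were higher in the gallbladder, 6 were lower and 5 did not pass among IL-25+ cells, against 23.7% of all genes called, with a median log2 difference of -1.4. Among IL-25- cells 2 were higher in the gallbladder, 8 were lower and 6 did not pass, against 24.6% of all genes, with a median of -1.8. Ephb2, a receptor tyrosine kinase that orders cells along the crypt, and Slc12a2, an ion cotransporter, were among those lower in the gallbladder in both gates. Ephb2 was measured at 36, 37.7 and 30.8 CPM in IL-25+ gallbladder against 102, 71.9 and 103 CPM in IL-25+ small intestine libraries (-1.4 ± 0.27, adjusted p = 0.00253). In IL-25- cells it was measured at 30.3, 30 and 19.8 CPM in gallbladder against 110, 57 and 87.5 CPM in small intestine libraries (-1.67 ± 0.28, adjusted p = 0.00081). The Slc12a2 differences were -1.85 ± 0.36 among IL-25+ cells (adjusted p = 0.00262) and -2.29 ± 0.37 among IL-25- cells (adjusted p = 0.00065). The Ephb2 groups of the 2 tissues did not overlap in either gate, and these 4 calls held in every alternative.

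Nkd1 and Ascl2, another feedback inhibitor and a stem cell transcription factor, were high in IL-25+ gallbladder cells. Nkd1 was measured at 232, 193 and 157 CPM there and at 3.86, 0.325 and 0 CPM in IL-25- gallbladder libraries, against 7.02, 6.78 and 7.01 CPM in IL-25+ and 7.98, 3.14 and 2.31 CPM in IL-25- small intestine libraries.

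Ascl2 was measured at 46.9, 50.3 and 25.7 CPM in IL-25+ and at 0.702, 0.177 and 2.37 CPM in IL-25- gallbladder libraries, against 3.55, 1.16 and 3.16 CPM in IL-25+ and 16.7, 2.17 and 3.5 CPM in IL-25- small intestine libraries. Among IL-25+ cells Ascl2 was higher in the gallbladder by 3.96 ± 0.95 (adjusted p = 0.00931) and its gate effects differed by 6.75 ± 1.31 (adjusted p = 0.00645), both in every alternative. For Nkd1 these values were 4.8 ± 1.16 (adjusted p = 0.0138) and 6.41 ± 1.54 (adjusted p = 0.0284). The first Nkd1 call was lost without IL-25+ small intestine library 1, 2 or 3 (0.054, 0.0557 and 0.0522). The second was lost without any of those 3 (0.0726, 0.0767 and 0.0715), without IL-25- small intestine library 1 (0.0661), without IL-25+ gallbladder library 1 (0.0535) and without a filter (0.0785), and it was 9.81 without both doubtful libraries.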

How the data were processed

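Libraries were made from sorted primary mouse cells with a Nextera XT kit, which keeps no strand, per the labels' protocols. The authors deposited read counts per Ensembl gene, and the submitters' processing notes name STAR 2.7.2b, DESeq2 1.26 and GRCm38; the read counter and annotation release are not given in the sources used here. Of 43432 genes, 42462 matched GENCODE M21 by Ensembl ID, and 11 columns that match no sample were not used.

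All 12 libraries were fitted together in edgeR 4.0.16 (R 4.3.3) with quasi-likelihood tests on 4 group means, after a minimum count of 10 (16636 genes) and TMM scaling. Tests were two-sided, with Benjamini-Hochberg adjustment over all tested genes in each of 5 comparisons and a threshold of 0.05. CPM are the deposited counts scaled to the TMM effective library size. A fold against a group at 0 is a bound that takes 3 counts over that group as its floor, and intervals and floors cover counting error only. The scripts were tested on simulated data. Figures and tables used Python 3.11.15.

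Members described in full are those called in at least 1 comparison with a mean of at least 1 CPM in the higher group, 15 in number. Other pathway genes were named from the 6 with the lowest adjusted p in each list and comparison, not all of which are printed, with Ror2 as a receptor of Wnt5a and Axin2 given also for the small intestine gates. The members, the lists and the tests were chosen with earlier results of these data known. Alternatives were DESeq2 1.42.0, its size factors in edgeR, no filter, a filter of 5 CPM in 3 libraries, a replicate block, a fit restricted to the compared groups, and the omission of each library or of the 2 doubtful libraries, IL-25- gallbladder library 1 and IL-25- small intestine library 3.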

Additional observations from a re-analysis of the deposited data

Results flagged for a closer look

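For Lgr4 the effect of the IL-25 gate differed between the tissues by 1.21 on the log2 scale (SE 0.32, adjusted p = 0.0325 in edgeR). In the gallbladder Lgr4 averaged 127 ± 23.4 CPM in IL-25+ cells against 106 ± 16.2 CPM in IL-25- cells. The small intestine averages were 57.8 ± 7.74 CPM in IL-25+ cells against 112 ± 27.8 CPM in IL-25- cells (mean ± SD, n = 3 each).

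For Wnt4 the effect of the gate differed between the tissues by -5.09 (SE 1.46, adjusted p = 0.048 in edgeR): Wnt4 was lower in all 3 IL-25+ gallbladder libraries than in any IL-25- gallbladder library, while the small intestine groups overlapped. Both calls were lost under part of the alternatives, and the part of the higher enterocyte markers in IL-25- gallbladder library 1 was not tested beyond leaving that library out.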

How the results depend on the processing

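The 33 called results of members were recomputed under 18 or 19 alternatives each, 622 values in all: 539 kept the call, 83 ended it and 0 reversed the sign, and 18 of the 33 held in every alternative. Of 87 results of members that were not called, 21 were called under at least 1 alternative, 15 of them under DESeq2 and 19 under at least 1 other alternative. DESeq2 called 11 members between the small intestine gates (7 in edgeR), and 5555 of all genes against 4529. Between tissues among IL-25+ cells it called 13 members (8 in edgeR), and 4956 genes against 3938. For the difference between gate effects it called 4 members (2 in edgeR), and 2344 genes against 1536. Without both doubtful libraries, 4 members were called between tissues among IL-25- cells (10 with them), and 3008 genes against 4099. For the difference between gate effects 0 members were called without them, and 1299 genes against 1536. Leaving out 1 library at a time gave 4 to 9 members between the gallbladder gates, 4 to 8 between the small intestine gates, 7 to 11 between tissues among IL-25+ cells, 4 to 10 among IL-25- cells and 0 to 1 for the difference between gate effects. The numbers of genes were 3609 to 4512, 3125 to 4829, 2815 to 4227, 3123 to 4304 and 1054 to 1603 in the same order. The cause of these shifts was not tested.

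The labels do not state whether libraries of the same number are paired. Deviations of same-numbered libraries correlated at 0.09, 0.02 and 0.16 in the gallbladder and at 0.03, 0 and -0.03 in the small intestine. Those of different-numbered libraries lay between -0.18 and 0.1 in the gallbladder and between -0.06 and 0.06 in the small intestine. With so few libraries these values cannot decide whether the samples are paired. With the replicate number as a block, 6, 7, 7, 9 and 1 members and 4074, 4254, 3540, 3796 and 1340 genes were called in the 5 comparisons. The block ended the call of Wnt7a between tissues among IL-25+ cells (0.0579) and that of Wnt4 for the difference between gate effects (0.0935). It also ended the calls of Wif1 between the small intestine gates (0.0673) and between tissues among IL-25- cells (0.0617). DESeq2's size factors shifted the median of all genes by -0.124 between the small intestine gates, 0.107 between tissues among IL-25+ cells and 0.164 for the difference between gate effects, on the log2 scale. The 25 untested members did not pass the filter on low counts, and 3 counts correspond to 0.0421 to 0.122 CPM in a library.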
